A study of Mus musculus with 12 samples.

Results

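Insulin-like growth factor 1 (Igf1), its receptor (Igf1r) and 6 IGF-binding proteins (Igfbp2 to Igfbp7) were followed in the left ventricle of the mouse heart 7 days after surgery. The 8 genes were chosen by name and matched by symbol in a table of 18050 genes, and all 8 were found. All mice carried the wild-type genotype and were either sham operated or given MI, taken to mean myocardial infarction, in which part of the heart muscle dies for lack of blood. The labels give no strain, age or sex. Each group held 6 libraries, numbered 1 to 6. The labels do not say that each library came from its own animal. Standard errors and p-values therefore reflect only how far these libraries spread, and that spread may be technical.

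IGF1 is a secreted peptide hormone made in the liver under growth hormone and also locally in many tissues. It binds the receptor tyrosine kinase IGF1R, which signals through insulin receptor substrates, PI3 kinase and Akt towards growth and survival. The IGF-binding proteins hold IGF1 and IGF2 outside the cell, prolong their life and limit or deliver them to the receptor, and proteases release the ligand by cutting them. In the heart, IGF1 is known as a growth and survival factor of cardiac myocytes, and macrophages and fibroblasts are known local sources of it.

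The submitters' processing notes part the libraries into a first set, replicates 1 and 2, and a second set, replicates 3 to 6. Totals of expected counts ran from 15541334 to 16066681 in first-set sham and from 18546662 to 18602226 in first-set MI. In the second set they ran from 9140353 to 9750764 in sham and from 14168412 to 14410783 in MI. Within each set every MI library thus had a larger total than every sham library. The 4 replicates of a group in the second set lay very close together, so every test was run over 12 libraries and again with replicates 3 to 6 of each group summed, 3 against 3. A gene was called higher or lower only where both tests gave an adjusted p under 0.05 in the same direction. The MI libraries of the second set stood apart in a further respect: Hbb-bs and Hbb-bt made up 0.0596% to 0.194% of their beta-globin counts and at least 99.87% in every other library. Lung epithelial markers were also higher there, at a summed 179 to 183 CPM (counts scaled to library size) against 0.228 to 2.84 in the other libraries, with all 8 of the 8 listed markers in the table carrying a count. The part of these differences in the results was not tested, and values of the first set, which does not hold those libraries, are given beside the results for each gene that is described with its values.

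The tissue label was checked against markers of its cell types. Myocyte markers (Myh6, Tnnt2, Ttn and 5 others) summed to 69945 to 83342 CPM in sham, and 7 of 8 were called lower. In MI they summed to 5723 to 9440 CPM in the first set and 25184 to 25602 CPM in the second. Fibroblast and myofibroblast markers (Pdgfra, Col1a1, Postn and 3 others) summed to 1687 to 2591 CPM in sham, and 5 of 6 were called higher. In MI they summed to 26743 to 33005 CPM in the first set and 11320 to 11373 CPM in the second. Macrophage and monocyte markers (Adgre1, Cd68, Csf1r and 4 others) summed to 445 to 879 CPM in sham and 3106 to 4720 CPM in MI, and 6 of 7 were called higher. Endothelial markers summed to 1227 to 1419 CPM in sham and 529 to 581 CPM in MI of the first set. In the second set they summed to 2713 to 2788 CPM in sham and 1494 to 1519 CPM in MI, and 2 of 5 were called lower. Atrial myocyte markers (Myl7, Sln, Myl4 and Nppa) were present too, at 1795 to 2496 CPM in first-set sham, 161 to 197 CPM in second-set sham and 3711 to 6978 CPM in MI. None of these 4 was called higher, and 1 was called lower. Mesothelial markers (Msln, Upk3b, Wt1 and Krt19) summed to 44.0 to 44.7 CPM in sham and 104 to 172 CPM in MI of the first set, and to 26.5 to 30.7 and 22.5 to 24.9 CPM in the second. Of these 4, 2 were called higher and none lower. Over all genes tested by both tests, 28.1% were called higher and 29.8% lower. In these whole-tissue libraries, fewer or more cells of a type and less or more RNA per cell cannot be told apart. The part of this shift in the values below was not tested.

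The 8 genes are spread over 6 chromosomes of GRCm38 (GENCODE M21), and all are protein coding. Igf1 lies on chromosome 10 (87858265 to 87937042, plus strand) and Igf1r on chromosome 7 (67952827 to 68233668, plus strand). Igfbp2 (chromosome 1, 72824503 to 72852474, plus strand) and Igfbp5 (chromosome 1, 72857932 to 72874884, minus strand) are neighbours, tail to tail, with 5457 bases between them. Igfbp3 (7206086 to 7213923, minus strand) and Igfbp4 (99041244 to 99054392, plus strand) both lie on chromosome 11, far from each other. Igfbp6 is on chromosome 15 (102144362 to 102149511, plus strand) and Igfbp7 on chromosome 5 (77349240 to 77408041, minus strand). Of the 8, Igfbp7 alone shares exon bases with another gene: 7.0% of its exon bases overlap Polr2b on the opposite strand. Strandedness of the libraries is not stated, so reads over that stretch cannot be assigned to one of the pair.

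Promoters are shown for the 5 genes whose 6 MI libraries all lay above all 6 sham libraries (Igf1, Igfbp2, Igfbp3, Igfbp4 and Igfbp7). The choice rests on that separation alone, which 21.2% of 13654 genes showed in that direction. Between these genes, Pearson's r of log2 CPM ran from 0.590 (Igf1 with Igfbp4) to 0.974 (Igfbp2 with Igfbp3). Positive values follow in part from that choice, since genes separated in the same direction vary together between the groups. Each line gives the 120 bases before the RefSeq start site (build GRCm38.p6), 5′ to 3′ on the gene's strand, with motif matches in capitals.
Igf1: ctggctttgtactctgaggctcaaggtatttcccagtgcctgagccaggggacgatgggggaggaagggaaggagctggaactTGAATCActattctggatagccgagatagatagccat
Igfbp2: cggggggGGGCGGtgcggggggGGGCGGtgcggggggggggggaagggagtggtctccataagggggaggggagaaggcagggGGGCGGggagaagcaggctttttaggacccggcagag
Igfbp3: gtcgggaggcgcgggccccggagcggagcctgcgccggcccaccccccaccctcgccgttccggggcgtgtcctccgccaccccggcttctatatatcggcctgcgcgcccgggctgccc
Igfbp4: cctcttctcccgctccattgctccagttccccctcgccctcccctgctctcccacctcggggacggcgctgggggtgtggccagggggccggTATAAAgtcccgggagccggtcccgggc
Igfbp7: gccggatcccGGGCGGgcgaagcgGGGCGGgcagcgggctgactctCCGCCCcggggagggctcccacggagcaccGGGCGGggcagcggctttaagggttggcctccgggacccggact
The Igf1 stretch (chr10:87860991-87861110, plus strand) holds 1 match to the AP-1 letters TGANTCA, whose first base is at -37 from the start site. This start site lies 2846 bases into the GENCODE gene. The Igfbp2 stretch (chr1:72824360-72824479, plus strand) holds 3 GC boxes (GGGCGG), with first bases at -113, -98 and -37. RefSeq gives Igfbp2 a second start, at 72825387, whose window is not printed and holds 1 AP-1 match at -39. In Igfbp7 (chr5:77408046-77408165, minus strand) there are 4, at -110, -96, -74 and -44, of which that at -74 reads CCGCCC on the gene's strand. The Igfbp4 stretch (chr11:99041124-99041243, plus strand) has a TATA box (TATAAA) at -28, and the Igfbp3 stretch (chr11:7213924-7214043, minus strand) holds none of the letters searched. Besides these 3 motifs, both strands were searched for the FoxO letters TGTTTAC, the E-box CACGTG, the SMAD element GTCTAGAC, the C/EBP letters TTGCGCAA, the NF-kB site, the STAT letters TTCNNNGAA, the TEAD letters GGAATG and the CArG box. The AP-1 and E-box letters read alike on both strands, and no matches to different motifs overlapped in the printed stretches. Over windows from 250 bases before to 50 bases after each of 32851 RefSeq starts, a GC box was found in 35.7%, a TATA box in 13.6% and the AP-1 letters in 7.8%. The Igfbp3, Igfbp4 and Igfbp7 windows were 71.7%, 71.3% and 73.3% G or C, against a median of 52.7% over all windows, while Igf1 was at 52.3%. A match describes these letters only and was not tied to binding.

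Transcript levels were compared between genes on the authors' TPM scale, which takes gene length into account. Igfbp7, a secreted protein that shares the IGFBP fold but binds IGFs weakly, was the most abundant of the 8 in both groups and both sets. Its level was 745 ± 77.2 TPM (SD, n = 2) in sham and 4391 ± 55.8 TPM (SD, n = 2) in MI of the first set, which placed it 216th and 19th of 17625 genes. In the second set it was 406.5 ± 6.38 TPM (SD, n = 4) in sham and 2193 ± 44.2 TPM (SD, n = 4) in MI. Igfbp4 came next throughout, at 120 to 176 TPM in the sham means and 356 to 1040 TPM in the MI means. Igfbp3 was the fifth gene in sham, with means of 20.1 and 19.2 TPM, and the third in MI, with means of 210 and 114 TPM. Igfbp5 and Igfbp6 lay in the middle of the order. Igf1 itself was the sixth in every group, at 4.02 ± 0.0778 and 8.92 ± 0.690 TPM in sham and 37.7 ± 7.65 and 40.9 ± 0.480 TPM in MI (SD, n = 2 and n = 4). Igf1r had means of 3.88 and 2.99 TPM in sham and 8.22 and 5.86 TPM in MI, and Igfbp2 was lowest, at 0.105 and 0.278 TPM in sham and 8.15 and 4.73 TPM in MI. Neighbours in this order whose libraries overlapped were Igf1 and Igf1r in first-set sham, Igfbp3 with Igfbp6 and Igfbp6 with Igfbp5 in first-set MI, and Igf1r with Igfbp2 in MI of both sets.

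Of the 8 genes, 6 were called higher in MI (Igf1, Igf1r, Igfbp2, Igfbp3, Igfbp4 and Igfbp7), none was called lower, and Igfbp5 and Igfbp6 were not called. By the same rule, 28.1% of the 13592 genes tested by both tests were higher and 29.8% lower. Without sham replicate 1 the count of higher genes over all genes fell from 3824 to 2240, and without sham replicate 2 to 2455. The 12-library test alone called 7 of the 8 higher, beside 37.9% of genes higher and 38.0% lower, and the test with replicates 3 to 6 summed called 6, beside 28.2% of genes. In the first set alone 7 of the 8 were higher, beside 34.1% of genes, and in the second set alone 7 were higher and Igfbp6 lower, beside 42.3% and 39.6%. With library size alone as the scaling all 8 were called higher, Igfbp5 at 0.86 and Igfbp6 at 0.59 (log2). That scaling moved the median of all genes to 0.42. It also called more genes higher than lower over all genes, in counts given in the last section, where the main scaling called fewer. The median log2 fold change of the 8 was 1.53, beside 0.01 over all genes tested. The groups did not overlap, all 6 MI libraries above all 6 sham libraries, for 5 of the 8 genes, while 21.2% of 13654 genes separated in that direction and 21.3% in the other. The values in each library are plotted next, on a scale of CPM with TMM scaling, which adjusts each library's total for differences in make-up.

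**Figure D1:**
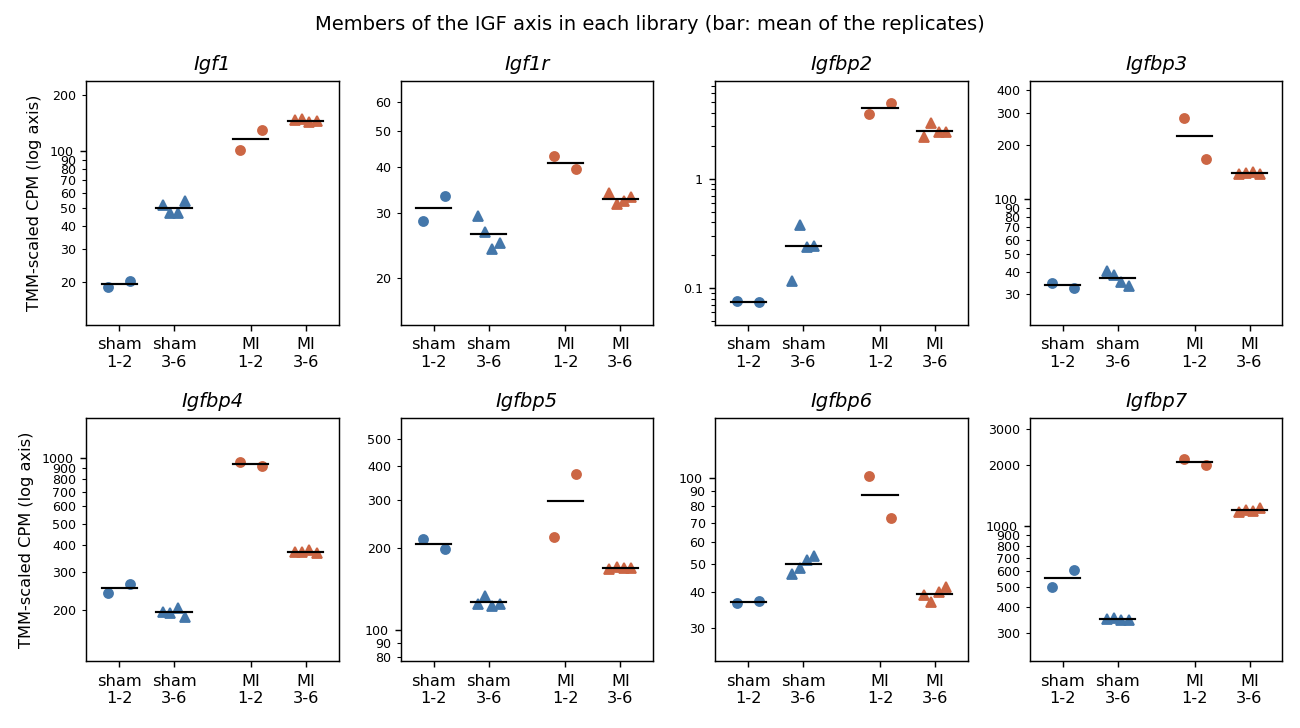
TMM-scaled CPM (log axis, its range differing between panels) of the 8 genes in each library; circles are replicates 1 and 2, triangles replicates 3 to 6, bars the mean of each. All 6 MI libraries lie above all 6 sham libraries for Igf1, Igfbp2, Igfbp3, Igfbp4 and Igfbp7, and on this scale MI lies above sham in one set and below it in the other for Igfbp6 (second-set log2 difference -0.29, and 0.05 with library size alone).

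The ligand Igf1 rose. Its level was 19.0 and 20.3 CPM in sham replicates 1 and 2 and 52.0, 46.8, 47.0 and 54.3 CPM in sham replicates 3 to 6. In MI it was 102 and 130 CPM in replicates 1 and 2 and 146, 148, 144 and 145 CPM in replicates 3 to 6. The lowest MI library was above the highest sham library, and sham libraries of the second set were above those of the first. The means differed 5.92-fold in the first set and 2.92-fold in the second. The 12-library log2 fold change was 1.88 ± 0.16 (SE), with adjusted p = 5.04e-07 by edgeR and 0.00176 with replicates 3 to 6 summed. The sham level of the second set was 2.55 times that of the first, while the MI levels were 1.26 times apart. The difference in effect between sets was -1.02 (log2, second minus first), which passed over 12 libraries (edgeR adjusted p = 2.10e-05) and missed with replicates 3 to 6 summed (0.0606), so it was not called. Without MI replicate 1 or MI replicate 2 it was called, at -1.14 and -0.81.

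Igf1r, the receptor tyrosine kinase for IGF1, was called higher by a small amount. Its level was 28.6 and 33.4 CPM in first-set sham, 29.5, 26.7, 23.9 and 24.9 CPM in second-set sham, 42.8 and 39.5 CPM in first-set MI and 34.0, 31.7, 32.4 and 33.2 CPM in second-set MI. MI lay above sham within each set, but 3 of the 6 MI libraries did not lie above the highest sham library. The log2 fold change was 0.35 ± 0.06 (SE), with edgeR adjusted p = 0.000328 over 12 libraries and 0.0452 with replicates 3 to 6 summed. This call sits at the threshold. An earlier run, which filtered low counts by group and set rather than by group, gave 0.0516 and left Igf1r uncalled, with 5 of 8 genes called, and the filter by group was adopted after that result was seen. The call was also lost without sham replicate 1 (0.191), sham replicate 2 (0.0976), sham replicate 5 (0.0512), MI replicate 1 (0.123) or MI replicate 2 (0.0767), each the larger edgeR adjusted p. The size depends on the scale: with library size alone as the scaling the log2 fold change was 0.76.

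Igf1 and its receptor can be set against each other on the TPM scale. The ratio of Igf1 to Igf1r TPM was 1.00 and 1.07 in first-set sham and 3.89 and 5.31 in first-set MI. In the second set it ran from 2.76 to 3.37 in sham and from 6.82 to 7.26 in MI. The ratio was higher in every MI library than in any sham library.

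Igfbp2, a binding protein that is abundant in the fetus and in serum, was at the edge of detection in sham. It had 1 and 1 counts in first-set sham and 1, 3, 2 and 2 in second-set sham, against 81 and 105 in first-set MI and 40, 52, 44 and 44 in second-set MI. Every MI library had far more counts than any sham library. Scaled for library size, MI was 58.4 times sham in the first set, with a 95% exact interval of 15.9 to 486, and 11.4 times sham in the second, with an interval of 5.65 to 26.8. These intervals cover counting error only. The fitted log2 fold change was 4.22 ± 0.33 (SE), with edgeR adjusted p = 2.58e-07 over 12 libraries and 0.00202 with replicates 3 to 6 summed. Limma on log2(FPKM + 1) gave 1.85, a scale on which the added 1 exceeds every sham value and shrinks the change.

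Igfbp3, the main carrier of IGFs in serum, rose in both sets. Its level was 34.6 and 32.7 CPM in first-set sham, 40.3, 38.5, 35.1 and 33.3 CPM in second-set sham, 280 and 166 CPM in first-set MI and 138, 139, 141 and 137 CPM in second-set MI. The sham libraries of both sets overlapped, and MI replicate 1 stood above the other 5 MI libraries. The log2 fold change was 2.19 ± 0.16 (SE), with edgeR adjusted p = 1.45e-07 over 12 libraries and 0.00174 with replicates 3 to 6 summed. Without MI replicate 1 it was 2.04. The difference between sets, -0.81, passed over 12 libraries (edgeR adjusted p = 0.00621) and missed with replicates 3 to 6 summed (0.248). It was -0.34 without MI replicate 1, and -1.12 without MI replicate 2, where it was called.

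Igfbp4, known as an inhibitor of IGF action that is cut by the protease PAPP-A, rose in both sets by different amounts. It was 239 and 264 CPM in first-set sham and 955 and 916 CPM in first-set MI. Second-set sham libraries were at 196, 195, 204 and 187 CPM and second-set MI libraries at 371, 369, 376 and 367 CPM. The groups did not overlap, and first-set MI was the highest group by far. The log2 fold change was 1.25 ± 0.15 (SE), with edgeR adjusted p = 9.35e-06 over 12 libraries and 0.00492 with replicates 3 to 6 summed. Within sets it was 1.88 ± 0.13 and 0.97 ± 0.03 (SE). The difference between sets, -0.97, was called (edgeR adjusted p = 1.68e-07 over 12 libraries and 0.0445 with replicates 3 to 6 summed). That call was lost without sham replicate 1 or sham replicate 2 and with no filter on low counts.

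Igfbp7 rose in both sets. Its level was 503 and 608 CPM in first-set sham, 348, 352, 346 and 347 CPM in second-set sham, 2133 and 2000.0 CPM in first-set MI and 1169, 1203, 1190 and 1233 CPM in second-set MI. Levels in the second set were lower in both groups, and the MI libraries were above the sham libraries throughout. The log2 fold change was 1.82 ± 0.08 (SE) over 12 libraries (edgeR adjusted p = 2.16e-09, and 0.00215 with replicates 3 to 6 summed). It was 1.88 ± 0.16 in the first set and 1.83 ± 0.03 in the second (SE). The difference between sets was -0.11 ± 0.09 (SE), with edgeR adjusted p = 0.334 over 12 libraries.

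Igfbp5, a binding protein that attaches to extracellular matrix, was not called. It was 215 and 198 CPM in first-set sham and 219 and 374 CPM in first-set MI. Second-set sham was at 125, 134, 123 and 125 CPM and second-set MI at 168, 170, 169 and 169 CPM. MI was above sham within each set, but second-set MI was below first-set sham, and MI replicate 2 stood above all others. The log2 fold change was 0.45 ± 0.10 (SE), with edgeR adjusted p = 0.0019 over 12 libraries and 0.131 with replicates 3 to 6 summed. By set it was 0.50 and 0.46. With library size alone as the scaling Igfbp5 was called higher, at 0.86.

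Igfbp6, which prefers IGF2 over IGF1, was higher in MI in the first set and, on the TMM scale but not with library size alone, lower in the second. Its level was 36.7 and 37.1 CPM in first-set sham and 102 and 72.7 CPM in first-set MI. In the second set, sham libraries were at 46.5, 48.5, 51.7 and 53.3 CPM and MI libraries at 39.1, 37.0, 40.0 and 41.9 CPM. Groups separated within each set and overlapped over both. Within sets the log2 fold change was 1.22 ± 0.18 (SE; edgeR adjusted p = 0.0017) and -0.29 ± 0.05 (SE; 6.25e-06), and over 12 libraries it was 0.19 ± 0.24 (SE; 0.488). The second-set SE and p reflect only the spread of libraries that lay very close together. The difference between sets, -1.58, was called (edgeR adjusted p = 1.64e-06 over 12 libraries and 0.0339 with replicates 3 to 6 summed), and this call was lost without sham replicate 1 or sham replicate 2. The negative second-set value depends on the scaling: with library size alone it was 0.05 (adjusted p = 0.317), and the TPM means were 50.5 in sham and 62.5 in MI.

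Differences between sets were called for 2 of the 8 genes, Igfbp4 and Igfbp6, both more negative in the second set. By the same rule, 3.86% of the genes tested were more negative in the second set and 6.70% more positive. Over 12 libraries alone 5 of the 8 passed, all more negative in the second set, beside 26.8% of all genes in that direction and 28.2% in the other. Without MI replicate 2 the rule called 4 of the 8, adding Igf1 and Igfbp3, and without MI replicate 1 it called 3, adding Igf1. The effects by set are plotted next.

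**Figure D2:**
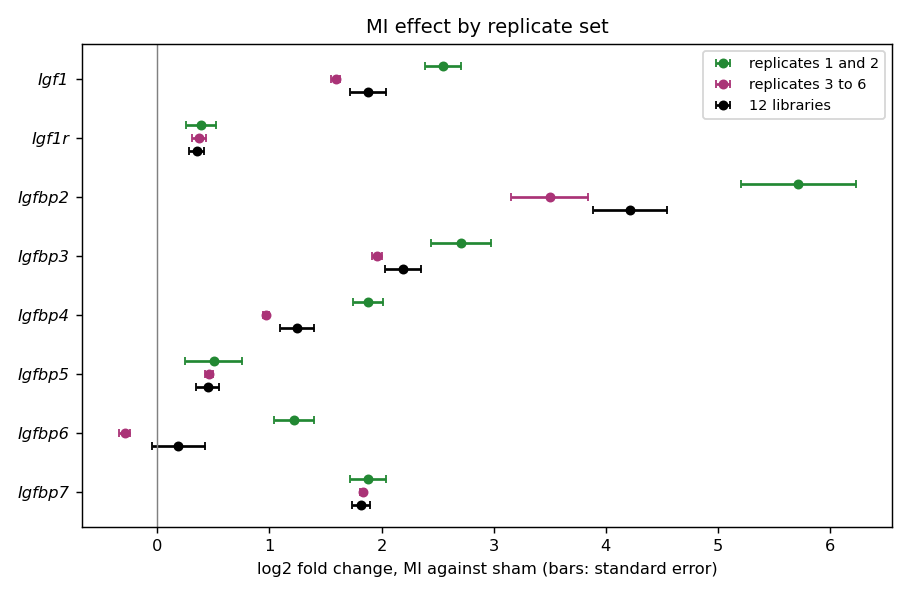
Log2 fold change of MI against sham for each of the 8 genes in replicates 1 and 2, in replicates 3 to 6 and over 12 libraries; points are edgeR estimates and bars their standard errors. The estimates of Igfbp7 lie between 1.82 and 1.88, while those of Igfbp6 lie on both sides of 0 at 1.22 and -0.29 (0.05 in the second set with library size alone). Bars for replicates 3 to 6 reflect only the spread of libraries that lay very close together.

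The make-up of the IGF-binding protein transcripts is given as a description, without a test. Igfbp7 made up 71.8% ± 2.05 of the summed Igfbp2 to Igfbp7 TPM in first-set sham and 74.1% ± 0.379 in first-set MI (SD, n = 2 each). In the second set it made up 65.2% ± 0.479 in sham and 78.7% ± 0.423 in MI (SD, n = 4 each). The share of Igfbp6 was 4.15% and 8.10% in the sham means and 2.69% and 2.24% in the MI means, and that of Igfbp5 was 4.98% and 4.38% in sham and 1.98% and 2.05% in MI. Igfbp4 held 17.1% in first-set sham and 17.6% in first-set MI, and 19.2% and 12.8% in the second set. The summed level was 1035 ± 77.9 TPM in first-set sham, 5926 ± 106 TPM in first-set MI, 623 ± 7.18 TPM in second-set sham and 2787 ± 42.6 TPM in second-set MI (SD, n = 2, 2, 4 and 4).

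**Figure D3:**
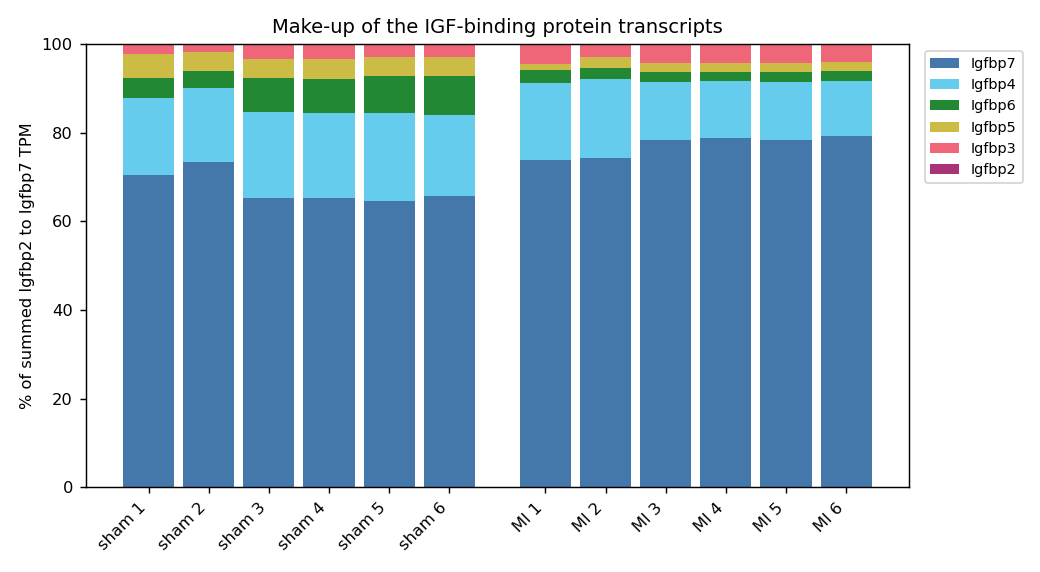
Share of each binding protein in the summed TPM of Igfbp2 to Igfbp7, in percent, with 1 stacked bar for each of the 12 libraries. Igfbp7 takes 64.5% to 73.3% of the sham bars and 73.8% to 79.2% of the MI bars.

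For each 100 TPM of binding protein transcript there were 0.373 and 0.404 TPM of Igf1 in first-set sham and 0.539 and 0.737 in first-set MI. In the second set there were 1.43 ± 0.118 in sham and 1.47 ± 0.0327 in MI (SD, n = 4). The sham and MI libraries overlapped in the second set and did not in the first.

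For each of the 8 genes, the 3 genes with the most similar pattern were taken from 10437 genes by Pearson's r of log2 CPM over 12 libraries. These values describe likeness only, since all 12 points share the groups, sets and depths above. Igf1 was nearest to Anxa3 (r = 0.998) and Anxa1 (0.996), which encode annexins, and to Tram1 (0.995). Igfbp7 was nearest to Col5a1 (0.998), a collagen chain, to Rpn1 (0.998) and to Col6a3 (0.998). Igfbp4 was nearest to Fbln2 (0.997), which encodes the matrix protein fibulin 2, Timp2 (0.996), a metalloproteinase inhibitor, and Tmem176a (0.995). Igfbp3 was nearest to Comp (0.994), a cartilage matrix protein, Pheta2 (0.992) and Lpp (0.992). Igfbp2 was nearest to Sumf1 (0.995), Igsf10 (0.994) and Rassf5 (0.994). Igf1r came nearest to Apba1 (0.978), Pias3 (0.968) and Cib1 (0.967), and Igfbp5 to Psap (0.984), Diaph1 (0.980) and 5031439G07Rik (0.979). For Igfbp6, Slc1a5 (0.961) and Cys1 were among the 3 nearest. Among the 8 genes themselves r was highest between Igfbp2 and Igfbp3 (0.974) and lowest between Igf1 and Igfbp5 (0.177).

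The rest of the IGF pathway was described by 11 lists of 76 genes, of which 75 were in the table and 70 were tested by both tests. Of those, 18 were called higher, 26 lower and 26 not called, beside 28.1% and 29.8% of all genes. Their median log2 fold change was -0.01, beside 0.01 over all genes. The split depends on the scaling: with library size alone 33 were called higher and 16 lower. Over all genes that scaling also called more higher than lower, in counts given in the last section. Among the genes named below, a difference between sets was called for Igf2, Pappa, Ccn5, Grb14 and Trim63 (log2 -1.05, -2.49, -2.59, 1.24 and 1.76, second minus first), and each of these calls was lost without sham replicate 1 or sham replicate 2.

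**Figure D4:**
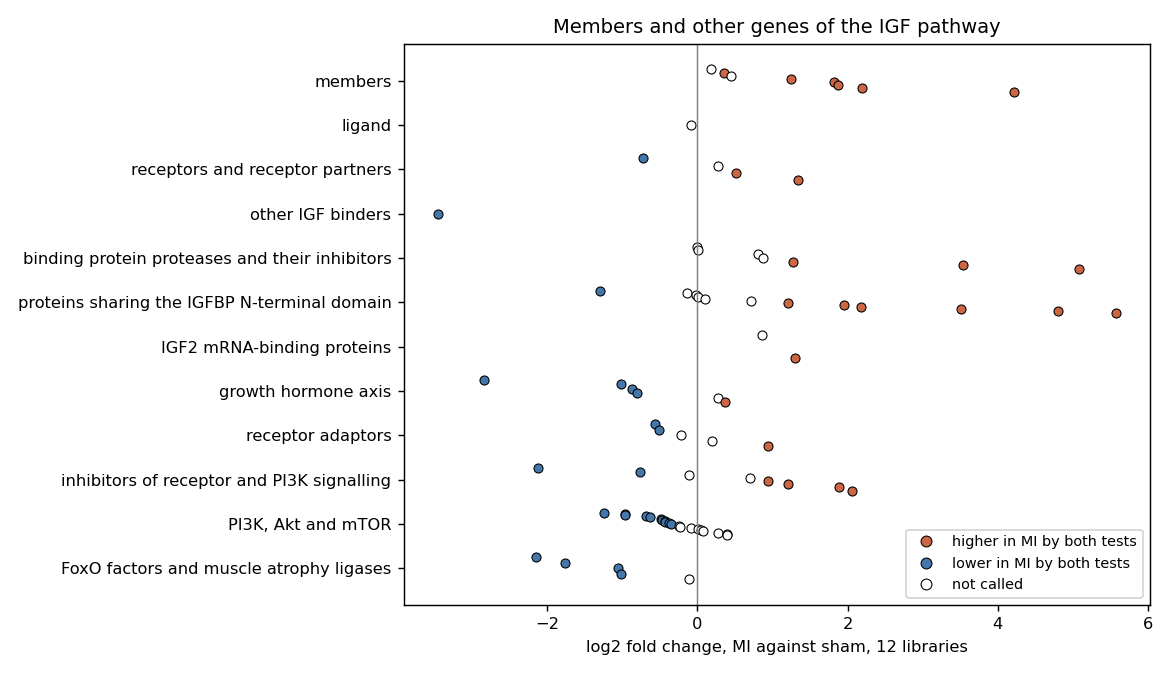
Log2 fold change of MI against sham over 12 libraries (edgeR, TMM) for the 8 genes and for each tested gene of the 11 pathway lists; red points were called higher, blue points lower and open points not called. The 8 genes lie from 0.19 to 4.22. The PI3K, Akt and mTOR list has 11 of 20 genes called lower, beside 29.8% of all genes. With library size alone as the scaling, 3 of that list were called lower and 5 higher.

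Outside the cell, the second ligand Igf2 was not called. First-set sham was at 48.4 ± 1.87 CPM and first-set MI at 74.6 ± 3.26 CPM (SD, n = 2), and second-set sham and MI at 84.4 ± 2.07 and 62.7 ± 1.40 CPM (SD, n = 4). MI was above sham in the first set and below it in the second (log2 difference -0.38, and -0.03 with library size alone), and the difference between sets was called, at -1.05. The summed mesothelial markers given above were also higher in MI in the first set and, on the TMM scale, lower in the second. They were not summed with library size alone, and of the 4 markers 2 were called higher and none lower. The part of these markers in the values of Igf2 and Igfbp6 was not tested. The list of proteases of the binding proteins and their inhibitors had 7 tested genes. Of these, 3 were called higher and none lower, beside 28.1% and 29.8% of all genes. The list had 5 called higher without sham replicate 3, 4 or 5. Pappa, which encodes the protease that cuts IGFBP4, had a log2 fold change of 3.53 ± 0.34 (SE), with 4 to 11 counts in the sham libraries and 114 to 332 in MI. The log2 fold change was 5.25 in the first set and 2.82 in the second. Adam12, a metalloprotease that cuts IGFBP3 and IGFBP5, had a log2 fold change of 5.08 ± 0.11 (SE), with 4.85 in the first set and 5.30 in the second. Adam9 was the third called gene. Ctsd, a lysosomal protease, was the most abundant of the list and was not called (0.88, edgeR adjusted p = 0.0644 with replicates 3 to 6 summed), though it was called higher with library size alone (1.29). By set it was 0.76 and 0.98. Igfals, which encodes the acid-labile subunit of the circulating IGF complex, was called lower, with 7 to 42 counts in the sham libraries and 1 to 4 in MI. Its log2 fold change was -3.91 in the first set, and it did not pass the filter in the second.

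Of 12 proteins that share the IGFBP N-terminal domain, 6 were called higher and 1 lower, beside 28.1% and 29.8% of all genes. The CCN matrix proteins stood among the largest: Ccn2, also known as connective tissue growth factor, had a log2 fold change of 3.51 ± 0.08, Ccn4 of 5.58 ± 0.17 and Ccn5 of 4.81 ± 0.42 (SE). In the first set they were 3.60, 5.86 and 6.57, and in the second 3.51, 5.41 and 4.04. Ccn1, Ccn3 and Esm1 were the others called higher, and Ccn6 was called lower. The call of Esm1 was lost with no set term. Ccn5 differed between sets by -2.59, with MI means of 905 ± 52.0 CPM (SD, n = 2) and 349 ± 12.1 CPM (SD, n = 4). Of the 2 tested IGF2 mRNA-binding proteins, Igf2bp2 was called higher (1.30 ± 0.14, SE), with 1.18 in the first set and 1.40 in the second.

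Among receptors and receptor partners, Insr, which encodes the insulin receptor, was called lower (-0.73 ± 0.13, SE), with -1.30 in the first set and -0.41 in the second. Cd93, an endothelial and myeloid surface protein that binds IGFBP7, was called higher (1.35 ± 0.18, SE), but the call was lost without sham replicate 1 or MI replicate 2. Its log2 fold change was 0.60 in the first set and 1.76 in the second, a difference that was not called. The list's 2 higher calls, Cd93 and Tmem219, were both lost without sham replicate 1 and with no set term. The lower call of Insr was also lost with no set term. In the growth hormone axis, 4 of 6 genes were called lower and 1 higher, beside 29.8% and 28.1% of all genes. Ghr encodes the growth hormone receptor and was at 163 ± 27.8 CPM in sham and 77.8 ± 6.14 CPM in MI of the first set (SD, n = 2), and at 256 ± 6.14 and 129 ± 1.21 CPM in the second (SD, n = 4). Its log2 fold change was -1.02 ± 0.07 (SE), and by set it was -1.08 and -0.95. Cish, a STAT5 target that damps cytokine signals, was called lower at -2.85 ± 0.08 (log2, SE), with -2.90 in the first set and -2.78 in the second. Stat5a and Stat5b were the other lower genes of that axis, and Jak2 was the higher one, a call lost without any 1 of sham replicates 1 and 2 and MI replicates 1 and 2. With no set term the axis had 2 genes called lower, Stat5b and Cish, and none higher, so that the call of Ghr was lost.

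Inside the cell, 11 of 20 genes of the PI3K, Akt and mTOR list were called lower and none higher, beside 29.8% of all genes called lower. The list median was -0.37, and with library size alone 3 were called lower and 5 higher. Much of the count rested on single libraries: 5 were called lower without sham replicate 1 or sham replicate 2, and 4 without MI replicate 1 or MI replicate 2. With no set term 4 were called lower. Akt2, a kinase of insulin signalling, had a log2 fold change of -1.25 ± 0.06, Pik3r1, a regulatory subunit of PI3 kinase, of -0.96 ± 0.09, and Rheb, the activator of mTOR complex 1, of -0.38 ± 0.05 (SE). In the first set they were -1.16, -0.86 and -0.37, and in the second -1.26, -0.97 and -0.35. With library size alone Pik3r1 and Rheb were not called, at -0.55 and 0.03. The call of Rheb was among those lost without any 1 of the 4 first-set libraries. Of the 5 tested receptor adaptors, Shc1 was called higher (0.94 ± 0.06, SE), Gab1 lower (-0.57 ± 0.06, SE) and Irs1 lower, and with library size alone neither Gab1 nor Irs1 was called. The call of Irs1 was also lost without any 1 of the first-set libraries. By set, Shc1 was at 1.09 and 0.90 and Gab1 at -0.79 and -0.41. Grb2 was the most abundant and was not called (-0.22, and 0.19 with library size alone), with -0.23 in the first set and -0.18 in the second.

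Of 8 inhibitors of receptor and PI3K signalling, 4 were called higher and 2 lower, beside 28.1% and 29.8% of all genes. The higher calls fell to 2 without sham replicate 2. Grb14, an adaptor that binds and blocks the insulin receptor, was called lower at a log2 fold change of -2.12 ± 0.19 (SE). It was at 352 ± 4.76 CPM in first-set sham and 45.3 ± 1.88 CPM in first-set MI (SD, n = 2), and at 269 ± 4.17 and 82.1 ± 2.82 CPM in the second set (SD, n = 4). By set the log2 fold change was -2.98 and -1.67. Socs1, a suppressor of cytokine signalling, was called higher at 2.06 ± 0.36 (log2, SE), and that call was lost without sham replicate 1 or sham replicate 2. By set it was 3.05 and 1.23. Of 5 FoxO factors and muscle atrophy ligases, 4 were called lower, beside 29.8% of all genes. With no set term 3 were called lower, as the call of Foxo3 was lost. Trim63 and Fbxo32, which encode the muscle ubiquitin ligases MuRF1 and atrogin-1, had log2 fold changes of -2.15 ± 0.27 and -1.77 ± 0.09 (SE). In the first set they were -3.35 and -2.15, and in the second -1.53 and -1.54. Both are expressed by striated muscle, and the myocyte markers fell in the same libraries, as given above. The part of that fall in these values was not tested.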

How the data were processed

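Expected counts, TPM and FPKM for 12 left ventricle libraries came from a table the authors deposited, with 18050 genes by Entrez ID. The submitters' processing notes name the GRCm38 build for all libraries, and Bowtie2, RSEM and DESeq2, without versions, for replicates 3 to 6 alone. The deposited expected counts are unscaled, and 53.1% of those of the 8 genes are not whole. The authors' TPM are scaled to a common transcript total and their FPKM by gene length and fragment total. A second deposited FPKM table covers replicates 1 and 2, and 30 values of the 8 genes of at least 1 FPKM differed from the first by ratios of 0.9545 to 1.0289. The 425 genes blank in replicates 1 and 2 were left out.

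The main test, on rounded counts, was the quasi-likelihood F test of edgeR 4.0.16 in R 4.3.3 after TMM scaling and filterByExpr by group, with the set as covariate, Benjamini-Hochberg adjustment over all genes tested and a threshold of 0.05. An interaction term (set by group) tested whether the MI effect differed between sets. The scripts were tested on simulated data. Standard errors come from dividing each log2 fold change by the root of its F. Igfbp2 ratios have exact 95% intervals. Exact two-sided permutation tests of log2(CPM + 1) over 12 libraries gave p = 0.00216, the smallest possible, for the 5 genes without overlap, 0.00866 for Igf1r, 0.0887 for Igfbp5 and 0.532 for Igfbp6. With replicates 3 to 6 counted once they cannot go below 0.1.

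The 8 genes, the lists and the tests were chosen with earlier results of these data known. The filter by group, and rounding before summing, replaced a first run filtered by group and set after the calls of that run had been seen, to match the processing behind those earlier results. Named pathway genes are the most abundant of each list and the 2 called genes with the largest change among those of at least 5 CPM in the higher group; other called members are named to complete small counts. Genes of similar pattern had at least 10 CPM in the higher group. The values of 1 such gene are left out. Alternatives covered scaling, filters, the test (DESeq2 1.42.0, limma 3.58.1 on log2 FPKM with pseudocounts of 1 and 0.1), the covariate, a replicate block, thresholds and leaving out each library. Promoters are from RefSeq (GRCm38.p6), and all 8 genes matched.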

Additional observations from a re-analysis of the deposited data

Results flagged for a closer look

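Within the 6 MI libraries, 1 library stood apart from the rest by Dixon's test for Igfbp3, where MI replicate 1 was at 279.6 CPM, and for Igfbp5, where MI replicate 2 was at 374.0 CPM. These were 2 of 32 groups examined among the 8 genes. Chance gives such a flag in about 1 in 20 groups of independent values with a normal spread. That rate need not hold here, since the 6 libraries pool 2 sets and replicates 3 to 6 were examined again on their own. The MI effect differed between the sets by both tests for Igfbp4 (-0.97, log2, second minus first) and Igfbp6 (-1.58). Among the named pathway genes it did so for Igf2 (-1.05), Pappa (-2.49), Ccn5 (-2.59), Grb14 (1.24) and Trim63 (1.76). The differences for Igf2, Ccn5, Grb14 and Trim63, like those for Igfbp4 and Igfbp6, were lost without sham replicate 1 or sham replicate 2. That for Pappa was lost without sham replicate 1, 2, 4 or 6. The unlike globin genes were found in MI of the second set alone, since second-set sham had at least 99.87% Hbb-bs and Hbb-bt. For a difference in MI effect between sets, processing notes, replicate numbers and those MI libraries come together and cannot be told apart. Within the second set, the MI effect cannot be told apart from whatever makes those libraries unlike. Myocyte markers summed lower and fibroblast markers higher in first-set MI than in second-set MI, as given above. The part of this in the differences between sets was not tested.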

How the results depend on the processing

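Igf1, Igfbp2, Igfbp3, Igfbp4 and Igfbp7 kept their call in all 28 other settings, and Igf1r lost it in 13 of 28. The filter by group and set, added after the data were seen, gave Igf1r an adjusted p of 0.052, or 0.0516 with rounding after summing as in the first run, with 5 of the 8 genes called higher in both. Igf1r was also lost with a replicate block (log2 fold change 0.36, edgeR adjusted p = 0.0921), with DESeq2 (0.0576), its size factors (0.0516), no low-count filter (0.0536) and no set term (0.223). The block changed no other call among the 8 genes. Replicate numbers did not pair the libraries: deviations of same-numbered sham and MI libraries correlated at -0.045 to 0.053. Igfbp6 reversed in the second set alone (-0.29), the 1 of the 8 called lower there.

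Pathway genes higher and lower were 33 and 16 with library size alone, 31 and 15 with limma on log2(FPKM + 1), and 31 and 16 with log2(FPKM + 0.1). Without the set term 14 were lower, and in the first set alone 29 were higher. Over all genes, higher and lower were 6269 and 2478, 6172 and 2545, and 6212 and 2562 for those 3 settings and 2305 and 2218 without the set term. Higher genes numbered 2184 at an adjusted p under 0.01 and 5759 in the second set alone. The count of the 8 genes that differed between sets was 1 with no low-count filter, 5 over 12 libraries alone and 0 at an adjusted p under 0.01. Leaving out 1 library gave 0 to 4 such genes, 5 to 6 of the 8 called higher, 15 to 22 pathway genes higher and 18 to 26 lower, and 2240 to 3915 genes higher and 2789 to 4073 lower. The cause of these changes was not tested. The low sham counts of Igfbp2 limit its precision.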
